A study of Homo sapiens with 4 samples.

Results

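Transcripts of 10 genes of the YAP/TAZ-TEAD system were followed in the human lung cancer cell line H1792, whose genotype the labels give as wild type. They were taken by symbol from the 61228 genes of the count files, and all 10 were found. Of these, 7 encode the machinery, namely the coactivators YAP1 and WWTR1 (the gene for TAZ), the DNA-binding factors TEAD1 to TEAD4 and the corepressor VGLL4. The other 3, CCN1, CCN2 and ANKRD1, are widely used target genes. Cells had been kept for 96 h with the solvent DMSO (2 libraries) or with ACBI1 at a dose that the labels give as 1 mM (2 libraries). That dose is unusually high for such a molecule and could not be checked from the counts. ACBI1 is a PROTAC, which brings a target protein to the VHL ubiquitin ligase so that it is degraded. It was designed against SMARCA2 and SMARCA4, which are the motor subunits of SWI/SNF chromatin remodellers, and also removes PBRM1. It acts on proteins, so transcript counts of its targets do not check the labels.

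YAP and TAZ do not bind DNA themselves. When the Hippo kinases MST1/2 and LATS1/2 are active, YAP and TAZ are phosphorylated and held in the cytoplasm or degraded; otherwise they enter the nucleus and bind TEAD proteins at promoters and enhancers. VGLL4 competes with them for TEAD. Much of this control works on proteins, so the counts below describe the transcript level only. Proteins were not analysed here.

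Gene counts summed to between 64281850 and 86010100 per library, and levels below are given as CPM, the counts of a gene for every 1000000 counts of its library after scaling. The labels number the libraries as replicates without saying whether they came from separate cultures, so p-values measure the spread between these libraries only, which may be technical. With 2 libraries on each side the smallest exact permutation p for a single value is 0.333, so tests come from the edgeR fit across all genes. As for the labelled cell type, of 6 epithelial genes KRT7, KRT8 and KRT18 were abundant with DMSO, with KRT7 at 678 and 680 CPM. KRT19 (3.44 and 5.00 CPM) and EPCAM (5.38 and 2.78 CPM) were low, and CDH1 had 4 to 16 counts per library. All 4 keratin genes were called lower with ACBI1, as were 10.6% of all genes tested. Their log2 changes were -2.50 for KRT7, -1.42 for KRT8, -1.14 for KRT18 and -2.51 for KRT19. EPCAM had a log2 change of 1.32 and was not called. The lung lineage factor NKX2-1 had 0 counts in every library. Of 4 leukocyte genes, PTPRC and CD3E had at most 2 counts in a library, CD68 had 1 to 9 and CD14 had 10 to 47.

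Within the machinery, the TEAD genes went different ways: TEAD4 transcripts rose 2.61-fold with ACBI1, and TEAD3 transcripts fell to 0.434 of their DMSO level. VGLL4 transcripts fell as well, to 0.437 of the DMSO level. YAP1, WWTR1, TEAD1 and TEAD2 did not pass the test, and neither did any of the 3 targets. Genes with an adjusted p under 0.05 (edgeR's quasi-likelihood test, Benjamini-Hochberg adjustment over all 19159 genes tested) count as called. Of those genes 17.4% were called, 6.75% higher and 10.6% lower with ACBI1. Among the 7 machinery genes 1 was called higher and 2 lower, and among the targets 0 of 3 were called. An unadjusted edgeR p under 0.05 was found for 0 of 3 targets, beside 6490 of the 19159 genes tested. The median log2 change was 0.22 over the 7 machinery genes and 0.43 over the 3 targets, beside 0.01 over all genes tested. All 10 genes passed the filter on low counts. In the targets, DESeq2 and limma-voom likewise made 0 calls, while the edgeR fit that kept genes of low count called CCN2 lower.

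**Figure D1:**
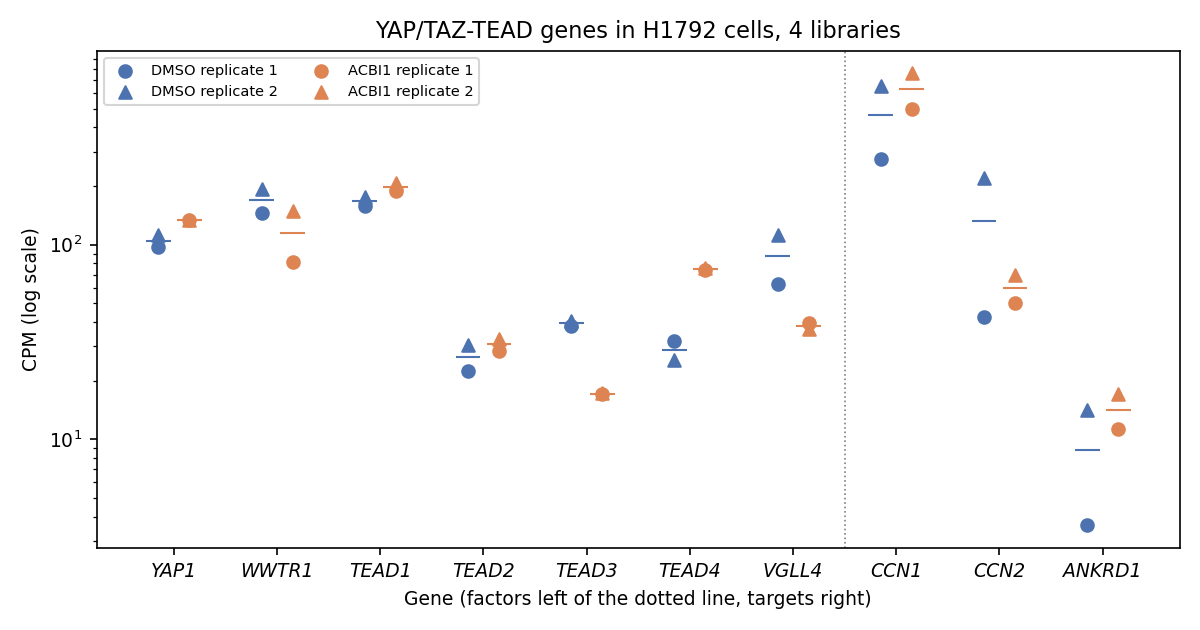
Level of each of the 10 genes in CPM on a log axis, with a point for each library, colour for the treatment and shape for the replicate number; the short line is the group mean of 2 libraries. YAP1, TEAD1, TEAD3, TEAD4 and VGLL4 separate by treatment, as did 63.2% of all genes tested. The DMSO libraries of CCN1, CCN2 and ANKRD1 lie far apart and overlap the ACBI1 libraries.

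Of the coactivators, YAP1 (chr11:102110461-102233423, plus strand, GRCh38) stood at 96.8 and 112 CPM in DMSO replicates 1 and 2 and at 134 CPM in both ACBI1 libraries. Both ACBI1 libraries lay above both DMSO libraries. Such a separation, in either direction, was found in 63.2% of all genes tested. The log2 change was 0.36 (95% interval -0.03 to 0.75) and missed the threshold (edgeR adjusted p 0.179).

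WWTR1 (chr3:149517235-149736714, minus strand), the gene for TAZ, was at 146 and 193 CPM with DMSO and at 81.4 and 148 CPM with ACBI1. One ACBI1 library lay below both DMSO libraries and the other between them, so the groups overlapped. Its log2 change was -0.56 (95% interval -1.32 to 0.20; edgeR adjusted p 0.258). Without a filter on low counts the adjusted p was 0.0377. The log2 change was -1.07 when ACBI1 replicate 2 was left out and -0.19 when ACBI1 replicate 1 was. An antisense gene, WWTR1-AS1, overlaps 9.45% of WWTR1 exonic length. It had 70 to 106 counts per library against at least 7284 for WWTR1. Per kilobase of exon, the YAP1 share of the summed coactivator level was 47.0% and 43.7% in the DMSO libraries and 68.7% and 54.6% in the ACBI1 libraries.

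TEAD4 (chr12:2959330-3040673, plus strand) was at 32.0 and 25.5 CPM in DMSO replicates 1 and 2, and at 74.1 and 76.2 CPM in ACBI1 replicates 1 and 2. Both ACBI1 libraries lay far above both DMSO libraries. TEAD4 rose by a log2 of 1.39 (SE 0.18, 95% interval 0.96 to 1.81), with an edgeR adjusted p of 0.00717. The call held in all 4 fits that left out 1 library, with log2 changes from 1.23 to 1.56.

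TEAD3 (chr6:35473597-35497076, minus strand) went the other way. It was at 38.3 and 40.5 CPM with DMSO and at 16.98 and 17.20 CPM with ACBI1. Replicates lay within 1.06-fold of each other in both groups, and the groups were far apart. The log2 change was -1.20 (SE 0.16, 95% interval -1.59 to -0.82; edgeR adjusted p 0.00776), and it was -1.24 to -1.16 with 1 library left out, called in all 4 fits.

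TEAD1 (chr11:12674591-12944483, plus strand), the TEAD gene with the most counts, was at 159 and 176 CPM with DMSO and 190 and 207 CPM with ACBI1. The groups did not overlap, yet the log2 change of 0.24 (95% interval -0.15 to 0.64) was not called (edgeR adjusted p 0.346). TEAD2 (chr19:49340595-49362457, minus strand) was at 22.4 and 30.3 CPM with DMSO and at 28.5 and 32.9 CPM with ACBI1, so that the groups overlapped. Its log2 change was 0.22 (95% interval -0.28 to 0.72; edgeR adjusted p 0.500). Intervals of both genes include 0 and still allow a modest rise or a small fall.

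The makeup of the TEAD pool was compared per kilobase of exon, since the genes differ in length. With DMSO, TEAD4 made up 28.4% and 21.7% of the summed TEAD level in replicates 1 and 2, and with ACBI1 it made up 49.3% and 47.7%. TEAD3 went from 25.3% and 25.6% to 8.42% and 8.03%. TEAD4 thus changed from a member level with TEAD3 to the most abundant of the 4 in both ACBI1 libraries. TEAD1 held 31.1% and 33.1% with DMSO and 27.9% and 28.6% with ACBI1. The summed level was 49.6 and 51.8 CPM per kilobase with DMSO and 66.2 and 70.3 CPM per kilobase with ACBI1. These shares carry no test of their own.

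**Figure D2:**
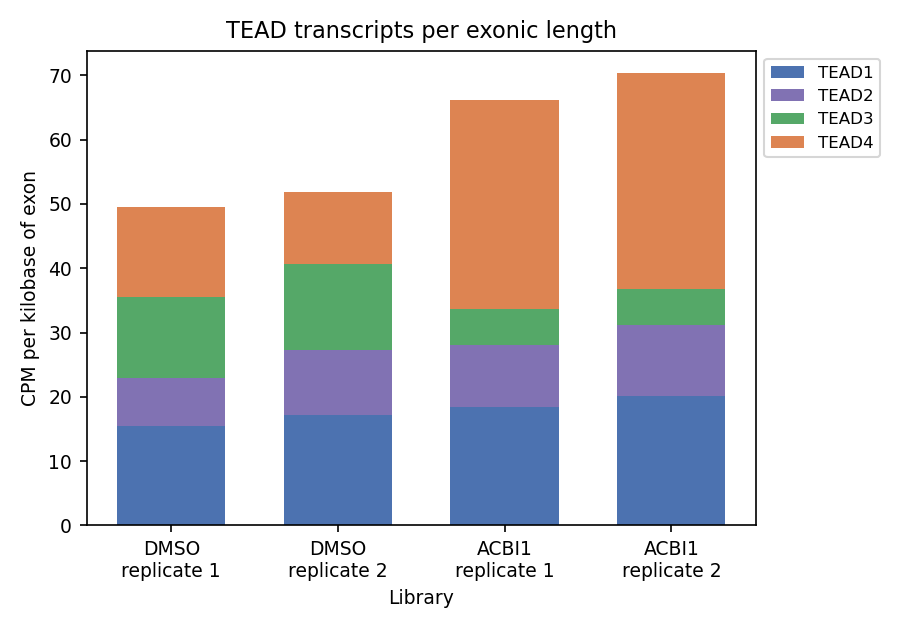
Stacked level of the 4 TEAD genes in CPM per kilobase of exon, 1 bar for each library. The TEAD4 segment grows from 14.1 and 11.2 with DMSO to 32.6 and 33.5 with ACBI1, while the TEAD3 segment shrinks from 12.6 and 13.3 to 5.57 and 5.65.

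VGLL4 (chr3:11556070-11771350, minus strand), whose protein blocks YAP and TAZ from TEAD, was at 63.1 and 112 CPM with DMSO and at 39.6 and 37.0 CPM with ACBI1. Both ACBI1 libraries lay below both DMSO libraries, and the DMSO libraries differed by 1.78-fold. VGLL4 fell by 1.20 on the log2 scale (SE 0.28, 95% interval -1.88 to -0.51), with an edgeR adjusted p of 0.0370. This call was the least steady of the 3. Without DMSO replicate 2 the log2 change was -0.72 (edgeR adjusted p 0.0629). Without ACBI1 replicate 1 or 2 the adjusted p was 0.0771 or 0.0838, with log2 changes of -1.24 and -1.16. Exons of genes on the opposite strand, ATG7 among them, overlap 23.7% of VGLL4 exonic length. The strand setting of the counting is not stated, so reads there could go to either gene or to none. ATG7 itself was at 46.9 and 37.3 CPM with DMSO and 43.2 and 42.8 CPM with ACBI1 (log2 change 0.03, edgeR adjusted p 0.925).

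**Figure D3:**
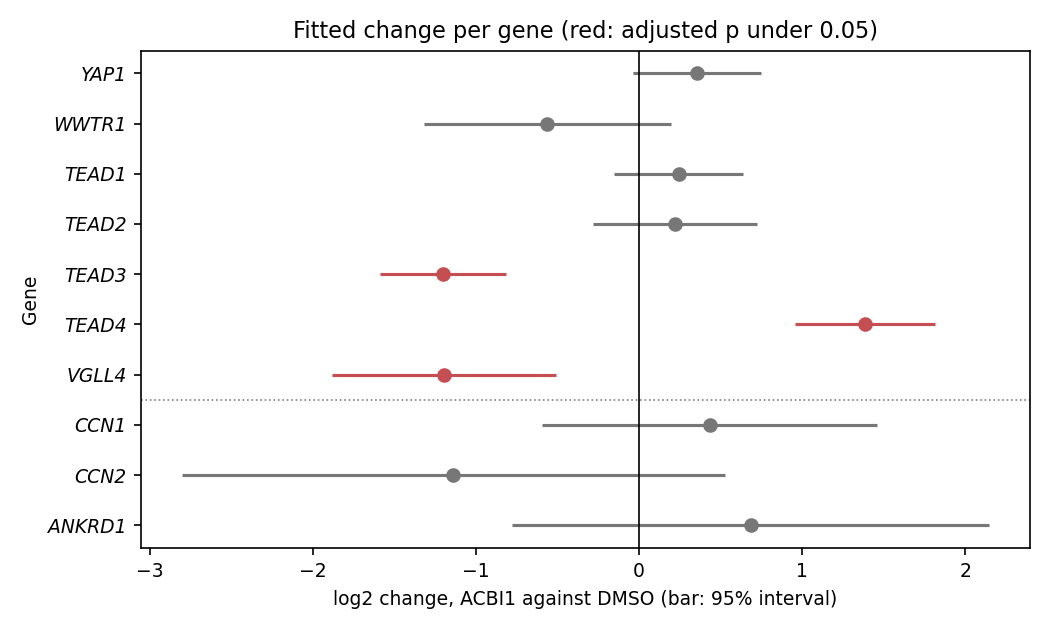
Fitted log2 change of each gene, ACBI1 against DMSO, with its 95% interval from the edgeR fit; red marks an adjusted p under 0.05 and the dotted line divides machinery from targets. TEAD3, TEAD4 and VGLL4 have intervals clear of 0, and the intervals of the targets are wide, from -2.81 to 0.53 for CCN2.

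Promoter sequence is shown for the targets because their response is read as TEAD activity, and for YAP1 because it is the machinery gene whose window held the motif. The TEAD motif searched was GGAATG and its reverse complement CATTCC, in the 300 bases from 250 before to 50 after each RefSeq start (GRCh38.p14). Of 35116 promoter windows 14.0% held it. Windows were at hand for 7 of the 10 genes; CCN1, TEAD1 and TEAD4 had none. Capitals mark the motif in the 250 bases before the start, written 5′ to 3′ on the strand of the gene.
CCN2 (chr6:131951373-131951622, minus strand): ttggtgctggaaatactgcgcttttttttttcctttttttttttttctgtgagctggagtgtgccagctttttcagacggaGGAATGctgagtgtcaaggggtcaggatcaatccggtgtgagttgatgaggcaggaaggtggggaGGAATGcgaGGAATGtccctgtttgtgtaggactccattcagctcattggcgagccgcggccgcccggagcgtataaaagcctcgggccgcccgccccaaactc
ANKRD1 (chr10:90921088-90921337, minus strand): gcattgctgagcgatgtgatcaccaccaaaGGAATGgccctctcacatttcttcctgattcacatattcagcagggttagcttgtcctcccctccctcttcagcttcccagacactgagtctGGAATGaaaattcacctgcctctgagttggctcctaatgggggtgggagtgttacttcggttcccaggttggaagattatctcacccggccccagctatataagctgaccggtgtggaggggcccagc
YAP1 (chr11:102110197-102110446, plus strand): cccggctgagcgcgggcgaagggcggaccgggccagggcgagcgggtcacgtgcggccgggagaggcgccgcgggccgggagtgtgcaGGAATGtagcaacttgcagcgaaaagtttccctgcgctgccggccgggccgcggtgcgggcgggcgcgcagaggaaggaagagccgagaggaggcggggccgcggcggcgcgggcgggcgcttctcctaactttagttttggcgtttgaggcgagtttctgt

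CCN2 held 3 matches, all in the orientation of the gene, of which the pair nearest to the start site begins at positions -104 and -95 relative to it. ANKRD1 held 2, beginning at -220 and -128, and YAP1 held 1, beginning at -162. No match was found in the windows of WWTR1, TEAD2, TEAD3 and VGLL4. For WWTR1 (chr3:149703224-149703523) and VGLL4 (chr3:11604532-11604831) the window lay inside the gene span given above. Sequence before the outermost start of these genes was therefore not searched. Among 14 further YAP/TAZ signature genes with a window, 5 held the motif. The AP-1 motif TGANTCA, the same on both strands, was found in 7.71% of all windows and in that of ANKRD1 alone among the 7 genes, overlapping no TEAD match. The CArG box of serum response factor (1.29% of all windows) was in none of the 7. A match describes letters in a window and not binding.

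The targets did not move as one. CCN1 (chr1:85580761-85583962, plus strand), which encodes a secreted matricellular protein, was at 277 and 654 CPM in DMSO replicates 1 and 2, and at 499 and 759 CPM in ACBI1 replicates 1 and 2. The ACBI1 libraries straddled the higher DMSO library. Its log2 change was 0.43 (95% interval -0.59 to 1.46; edgeR adjusted p 0.520).

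CCN2 (chr6:131948176-131951373, minus strand), a related matricellular protein that promotes fibrosis, was at 42.4 and 221 CPM with DMSO. Both ACBI1 libraries, at 49.9 and 69.8 CPM, lay between these values. The log2 change was -1.14 (95% interval -2.81 to 0.53; edgeR adjusted p 0.294). An antisense gene overlaps 8.34% of its exonic length.

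ANKRD1 (chr10:90912096-90921276, minus strand), which encodes an ankyrin-repeat protein first known from heart muscle, was the lowest of the 3. It had 3.61 and 14.1 CPM with DMSO, from 294 and 1011 counts, and 11.2 and 17.1 CPM with ACBI1. The groups overlapped here too, and the log2 change was 0.68 (95% interval -0.78 to 2.15; edgeR adjusted p 0.474).

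In each target, the verdict turned on which DMSO library was used. Without DMSO replicate 1 the log2 change was -0.06 for CCN1 (edgeR adjusted p 0.920), -1.89 for CCN2 (0.000923) and 0.01 for ANKRD1, so that CCN2 was called lower. Without DMSO replicate 2 it was 1.18 for CCN1 (edgeR adjusted p 0.0285), 0.50 for CCN2 (0.275) and 1.97 for ANKRD1 (0.00919), so that CCN1 and ANKRD1 were called higher. In these fits the lone DMSO library is assumed to vary like the ACBI1 group. CCN2 was also called lower when genes with low counts were kept in the fit (edgeR adjusted p 1.1e-06), with its log2 change almost the same at -1.14.

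The spread of the targets within a group was compared with that of the machinery. Between the DMSO libraries, CCN1 differed by 2.36-fold, ANKRD1 by 3.89-fold and CCN2 by 5.22-fold, each higher in replicate 2. Of 9464 genes at least as abundant as ANKRD1, a larger DMSO difference was found in 1.38%, 0.264% and 0.137% respectively. Among the machinery genes the largest DMSO difference was the 1.78-fold one of VGLL4, which 4.15% of those genes exceeded. The ACBI1 libraries differed less in the targets, by 1.40-fold for CCN2, 1.52-fold for CCN1 and 1.53-fold for ANKRD1, and replicate 2 was again the higher. A larger ACBI1 difference was found in 13.2%, 7.64% and 7.52% of the same genes respectively. WWTR1 differed more than any target between the ACBI1 libraries, by 1.82-fold, which 2.84% of the genes exceeded. The standard error of the log2 change was 0.42 to 0.69 in the targets and 0.16 to 0.31 in the machinery.

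**Figure D4:**
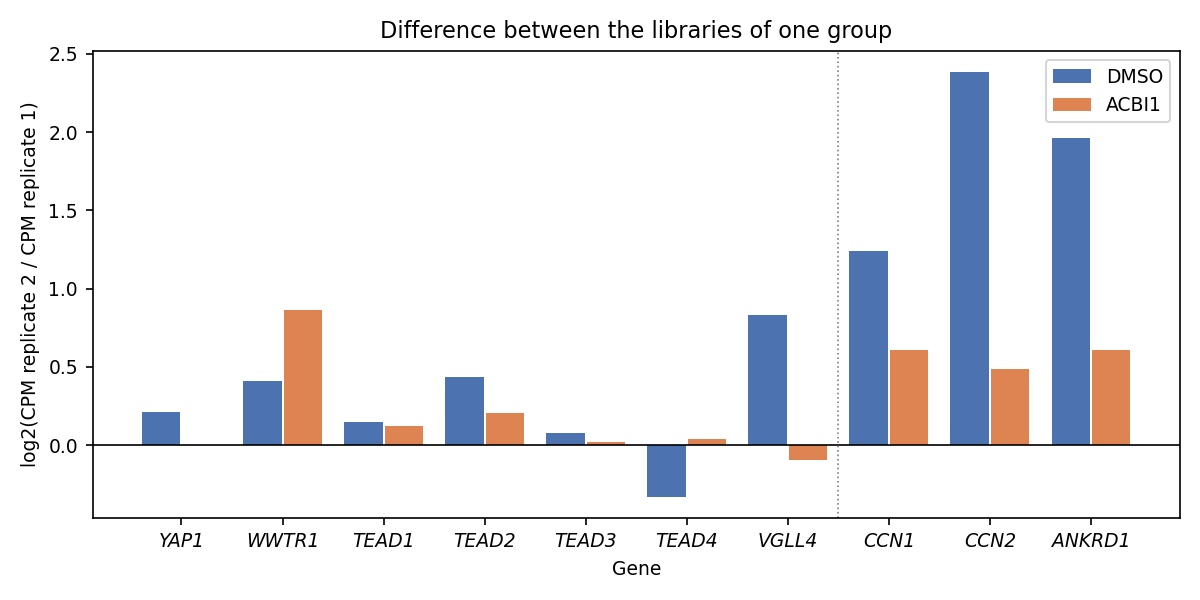
Log2 ratio of replicate 2 to replicate 1 in CPM for each gene, with a bar for each group; 0 means equal libraries. The DMSO bars of CCN1, CCN2 and ANKRD1 reach 1.24, 2.38 and 1.96, above those of the 7 machinery genes, which range from -0.33 to 0.83.

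Most marker genes listed for 3 cell types were lower with ACBI1. The fibroblast genes and the endothelial gene PECAM1 also differed between the DMSO libraries. The 5 fibroblast genes listed (COL1A1, COL1A2, PDGFRB, DCN and LUM) summed to 991 and 1941 CPM in DMSO replicates 1 and 2 and to 87.5 and 270 CPM in ACBI1 replicates 1 and 2. All 5 had both ACBI1 libraries below both DMSO libraries, as had 32.2% of all genes tested (31.1% lay above). Of the 5, 3 were called lower, and none was at 0. Over all genes tested, 10.6% were called lower, which applies beside each count of called markers here. Of 3 endothelial genes, both that were tested were called lower. One of them, PECAM1, was at 12.2 and 48.1 CPM with DMSO, a 3.93-fold difference, and had 1 and 3 counts with ACBI1, where VWF and CDH5 were at 0. Both of these were already low with DMSO, with 24 and 23 counts for VWF and 2 and 4 for CDH5. The 6 epithelial genes summed to 982 and 1035 CPM with DMSO and to 323 and 202 CPM with ACBI1, and 4 of the 5 tested were called lower. EPCAM, the other one tested, was at 5.38 and 2.78 CPM with DMSO and at 15.6 and 4.8 CPM with ACBI1. Its groups overlapped, and its log2 change of 1.32 was not called (edgeR adjusted p 0.179). The part of these marker genes in the result on the targets was not tested. In a culture measured in bulk, fewer cells with a transcript and less transcript per cell cannot be told apart.

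Levels of different genes were set side by side per kilobase of exon. With DMSO the order was CCN1 (190 CPM per kilobase), CCN2 (56.3), WWTR1 (20.1), YAP1 (16.6), TEAD1 (16.3), TEAD3 (12.9), TEAD4 (12.7), VGLL4 (12.1), TEAD2 (8.84) and ANKRD1 (4.46). Of the 9 neighbouring pairs in this order only 3 had libraries that did not overlap, namely CCN1 and CCN2, TEAD1 and TEAD3, and TEAD2 and ANKRD1. With ACBI1 the order became CCN1 (256 CPM per kilobase), TEAD4 (33.1), CCN2 (25.6), YAP1 (21.2), TEAD1 (19.3), WWTR1 (13.6), TEAD2 (10.3), ANKRD1 (7.17), TEAD3 (5.61) and VGLL4 (5.30). Here 8 of the 9 neighbouring pairs were apart, the exception being WWTR1 and TEAD2. TEAD4 moved from the seventh place to the second. With the longest transcript as length, the DMSO level of VGLL4 was 23.6 and that of WWTR1 33.7 CPM per kilobase.

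Upstream of YAP and TAZ, the core kinase genes STK3, STK4, LATS1 and LATS2 did not pass the test. Of 20 listed kinases and upstream regulators, all tested, 2 were called higher and 1 lower, 17 were not called, and the median log2 change was 0.08. Over all genes tested, 6.75% were called higher and 10.6% lower, with a median of 0.01. STK4 (MST1) had a log2 change of 0.50 (edgeR adjusted p 0.0911) and STK3 (MST2) one of 0.37 (0.300). LATS1 had -0.17 (edgeR adjusted p 0.471), LATS2 0.10 (0.736), the scaffold SAV1 -0.15 (0.612) and NF2, the tumour suppressor merlin, 0.23 (0.367).

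MAP4K4, a kinase that acts on LATS beside MST1/2, was at 515 and 453 CPM with DMSO and 215 and 214 CPM with ACBI1. It fell by 1.18 on the log2 scale (SE 0.17; edgeR adjusted p 0.00996). FRMD6, a FERM-domain protein that activates the pathway, went from 46.5 and 51.1 CPM to 113 and 96.4 CPM and rose by a log2 of 1.10 (edgeR adjusted p 0.0109). The polarity gene SCRIB rose by 0.97 (edgeR adjusted p 0.0310), with no call without DMSO replicate 2 (0.0727) or ACBI1 replicate 2 (0.113). MAP4K4 and FRMD6 were called in all 4 fits with 1 library left out.

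Among 14 regulators that bind YAP or LATS, of which 13 could be tested, 2 were called higher and 1 lower, with a median log2 change of -0.02. The shares over all genes tested were 6.75% higher and 10.6% lower. The phosphatase gene PTPN14, which holds YAP out of the nucleus, had a log2 change of 0.95 (edgeR adjusted p 0.0474). The LIM-domain genes that inhibit LATS went opposite ways: LIMD1 had 0.85 (edgeR adjusted p 0.0350) and AJUBA -0.84 (0.0487). Each of these 3 was called in only 1 of the 4 fits with 1 library left out: PTPN14 without ACBI1 replicate 1, LIMD1 without DMSO replicate 2 and AJUBA without DMSO replicate 1. The PTPN14 value was 0.58 without ACBI1 replicate 2 and AJUBA was at -0.53 without DMSO replicate 2. AJUBA was not called under upper-quartile scaling, under library size alone or by limma-voom. AMOTL2, which encodes a YAP-binding angiomotin, had 0.08 (edgeR adjusted p 0.807). AMOT had 2 to 10 counts per library and was not tested.

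Of a further 19 YAP/TAZ signature targets, all tested, 2 were called higher and 3 lower, and the median log2 change was -0.13. Beside this, 6.75% of all genes tested were called higher and 10.6% lower. CCDC80, a secreted matrix protein, fell furthest. It was at 42.6 and 133 CPM in DMSO replicates 1 and 2 and at 12.6 and 7.41 CPM in the ACBI1 libraries, a log2 change of -3.13 (SE 0.57; edgeR adjusted p 0.0187) that was -2.09 without DMSO replicate 2. Its DMSO libraries differed by 3.13-fold, in the same direction as those of the targets above.

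The kinase gene NUAK2, which supports YAP activity, had a log2 change of -1.52 (edgeR adjusted p 0.0192) and was not called without ACBI1 replicate 1 (0.0769). TGFB2, a ligand of the TGF-beta receptors, had -0.91 (edgeR adjusted p 0.0480), or -0.55 without DMSO replicate 2. It was called in only 1 of the 4 fits with 1 library left out, that without DMSO replicate 1, and not under upper-quartile scaling, library size alone or limma-voom. An overlapping transcript shares 26.6% of TGFB2 exonic length. MYOF, a membrane repair protein, was at 169 CPM in both DMSO libraries and at 347 and 432 CPM with ACBI1, a log2 change of 1.21 (edgeR adjusted p 0.0113) called in all 4 such fits. PTPN14, LATS2 and AMOTL2 belong to this signature as well as to the lists above.

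**Figure D5:**
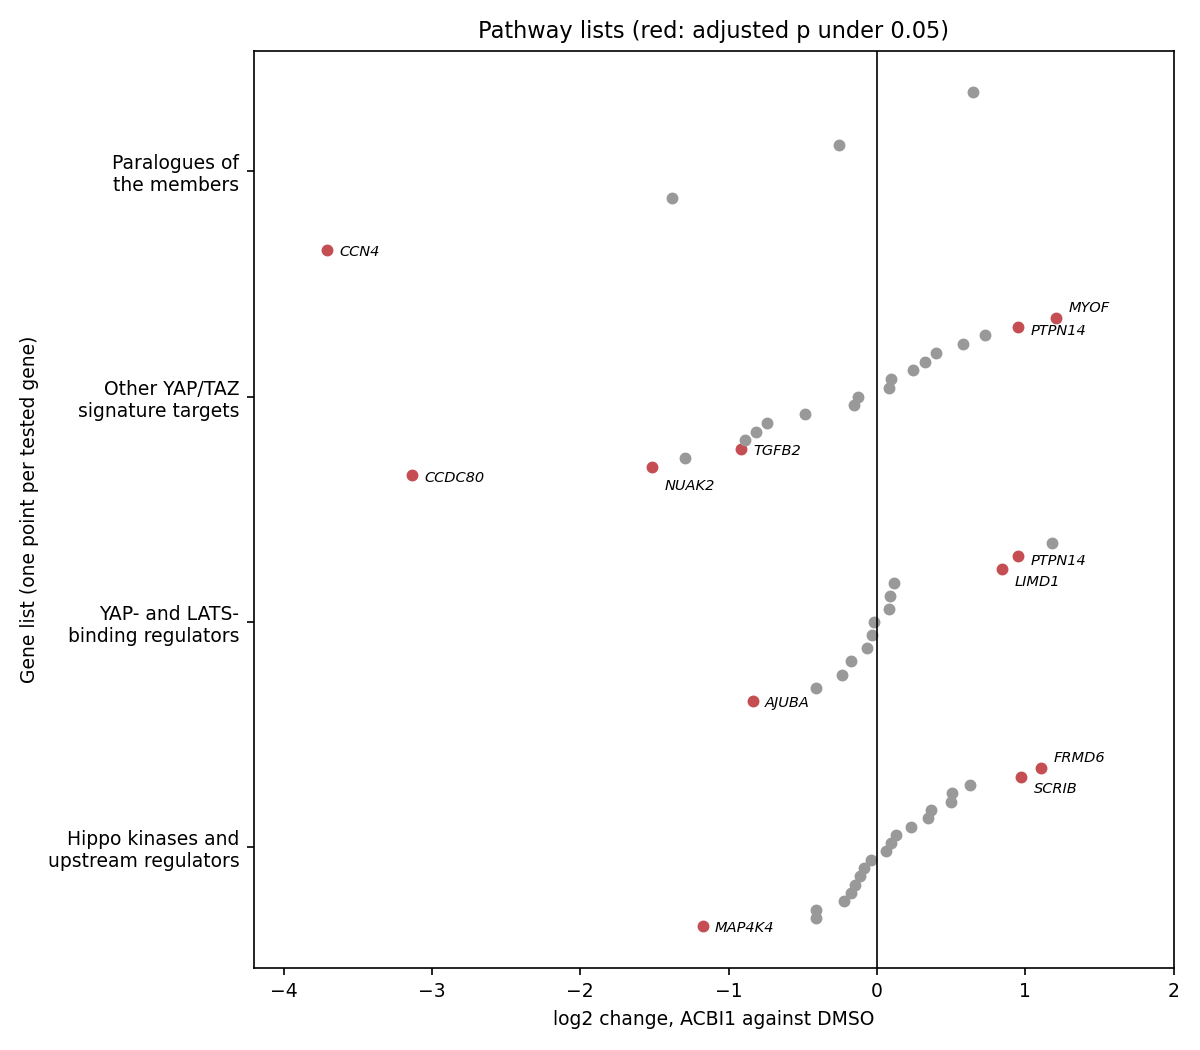
Fitted log2 change of each tested gene in 4 lists of pathway genes, ACBI1 against DMSO; red points, with names, have an adjusted p under 0.05. The lists hold 20, 13, 19 and 4 tested genes from bottom to top, and each of the lower 3 has called genes on both sides of 0.

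Of 9 paralogues of the 10 genes, 4 could be tested and 1 was called, beside 17.4% of all genes tested. VGLL3, a TEAD-binding relative of VGLL4, was at 6.83 and 12.9 CPM with DMSO and 14.2 and 16.7 CPM with ACBI1, a log2 change of 0.65 (edgeR adjusted p 0.224). It was called higher, at 1.18, without DMSO replicate 2 (edgeR adjusted p 0.0368). VGLL1 and VGLL2 had at most 2 counts in a library. CCN4, a secreted protein of the CCN family, was called lower (edgeR adjusted p 0.0222) from 54 DMSO counts against 4 ACBI1 counts. The DMSO level was 13.7 times that with ACBI1 (95% exact interval from the counts, 5.03 to 51.9). That interval leaves out the spread between libraries, which had 19 and 35 counts with DMSO. By edgeR, CCN4 had a log2 change of -3.71 (95% interval -5.45 to -1.96). It was called in 1 of the 4 fits with 1 library left out, that without DMSO replicate 1.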

How the data were processed

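The data are RNA-seq reads per gene in 4 libraries. Per the submitters' processing notes, reads were aligned to hg38 with TopHat2 2.1.1 and counted with HTSeq 0.11.0. Annotation, strand and overlap settings are not given in the sources used here. The counts as deposited by the authors are raw whole numbers for each gene symbol. The 5 summary lines for unassigned reads (13.9% to 15.4% of reads listed) were left out of library sizes. Shares and levels of single libraries cover these libraries only, and the one interval on counts covers counting error only.

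Genes were filtered with filterByExpr (minimum count 10, minimum total 15), scaled by TMM and fitted on treatment alone (edgeR 4.0.16 under R 4.3.3, glmQLFit and glmQLFTest, two-sided). The standard error is the log2 change divided by the square root of F, and the 95% interval uses the degrees of freedom of the fit. Exonic length and positions came from GENCODE 29, where CCN1 and CCN2 carry older symbols; promoters came from RefSeq (GRCh38.p14). Alternatives were other scalings, filters and thresholds, DESeq2 1.42.0, limma-voom (limma 3.58.1), the replicate number as a block and each library left out on the same genes. The text names the 10 genes, in each other list at most 5 called genes in each direction, and 8 further pathway genes. Members and lists were chosen with earlier results of these data known. The fit was also run on simulated data, and the rate at which it recovered changes is not given here.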

Additional observations from a re-analysis of the deposited data

How the results depend on the processing

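TEAD3 and TEAD4 kept direction and call in every fit run, and 8 of the 10 genes had the same sign throughout, with CCN1 and CCN2 as the exceptions. Depth limited CCN4, with 4 ACBI1 counts in all; the targets had at least 294 counts in each library. With genes of low count kept, 2202 of 32871 genes were called higher and 3316 lower. WWTR1 (-0.57) and CCN2 (-1.14, 1 target lower) were among those lower. In that fit 4 of 19 signature targets were higher and 7 lower. For the paralogues, 2 were lower and the median was -0.069. At a threshold of 0.01, 172 were called higher and 611 lower; VGLL4 (-1.20) was not called, which left 1 machinery gene lower, and no gene was called higher or lower in the lists of binding regulators, signature targets and paralogues (0 in each), nor higher (0) among the kinases and upstream regulators. A minimum mean of 5 CPM left VGLL3 alone of the paralogues (median 0.63, 0 lower). By DESeq2, 4 of 19 signature targets were higher and 5 lower, and 2 of 4 tested paralogues lower. Over all 19159 genes tested, DESeq2 called 1907 higher and 2604 lower. Under library size only, the medians of kinases and binding regulators were 0.17 and 0.065. In that fit 4 of 19 signature targets were higher and 0 of 13 binding regulators lower, beside 1755 higher and 1866 lower of 19159 genes. Upper-quartile scaling (0) and limma-voom (0) also called no binding regulator lower, beside 1995 and 2004 of all genes tested. Scaling by library size only moved the share of falls among calls from 61.2% to 51.5% and the median log2 change of all genes from 0.01 to 0.09. With longest transcripts as length, DMSO levels per kilobase were 19.4 for YAP1, 33.7 for WWTR1, 19.8 for TEAD1, 10.8 for TEAD2, 17.01 for TEAD4 and 23.6 for VGLL4. The shorter motif GGAAT, held by 36.4% of all windows, was in 2 of 5 machinery, 2 of 2 target and 8 of 14 signature windows. The cause of these differences was not tested.

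Nothing in the labels ties libraries of the same number to one batch or day, and the deviations of same-numbered libraries correlated at 0.44 across genes. With the replicate number as a block, 3708 of the 19159 genes tested were called higher and 4201 lower, beside 1294 and 2037 without it. YAP1 (0.36), CCN1 (0.53) and ANKRD1 (0.94) were then called higher and WWTR1 (-0.61) lower, which made 2 machinery genes and 2 targets higher. Of the 20 kinases and upstream regulators, the block gave 6 higher and 3 lower. Those higher included STK3 (0.38, edgeR adjusted p 0.0356) and STK4 (0.50, 0.00831). It gave 3 higher and 2 lower of 13 binding regulators, and 5 higher and 8 lower of 19 signature targets. Of the 4 tested paralogues, 1 was higher and 2 were lower.

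With 1 library left out, calls over all genes ranged from 531 to 1434 higher and from 1151 to 2365 lower. Log2 changes ranged from -1.55 to -0.72 for VGLL4, from -0.057 to 1.18 for CCN1, from -1.89 to 0.50 for CCN2 and from 0.013 to 1.97 for ANKRD1. Sign changes were seen for LATS2 (-0.0050 without ACBI1 replicate 1, up to 0.18), SAV1 (-0.33, to 0.0074 without ACBI1 replicate 2) and AMOTL2 (-0.12 without DMSO replicate 1, up to 0.32). Machinery genes lower numbered 1 to 2, and targets 0 to 2 higher and 0 to 1 lower. Kinases and upstream regulators had 1 to 2 higher (median 0.069 to 0.12), binding regulators 0 to 1 higher and 0 to 1 lower (median -0.090 to 0.065), signature targets 1 to 2 higher and 1 to 4 lower, and paralogues 0 to 1 higher and 0 to 1 lower (median -1.09 to -0.50).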
